A study of Homo sapiens with 6 samples.

Results

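The genes described here were the NRF2 pathway core, made up of the transcription factor NRF2 (gene NFE2L2), its inhibitor KEAP1 and 7 of its direct targets, HMOX1, NQO1, SRXN1, TXNRD1, GCLM, GCLC and OSGIN1. They were chosen by gene name, and each of the 9 names matched exactly 1 of the 38648 genes and gene copies listed. The measurements were bulk RNA-seq of HK-2, a human kidney line immortalized from proximal tubule epithelium. Of the lentiviral lines compared, 1 carried a virus for overexpression of PRDM16, a transcriptional regulator of the PRDM family (IR+PR-LV, n = 3). The other carried the negative control virus (IR+NC-LV, n = 3). Cells of both groups received a single X-ray dose of 8 Gy and were collected on day 7, so both groups were irradiated and no unirradiated library was compared. The question asked of the data was how the transcripts of the NRF2 pathway differed between irradiated cells with and without added PRDM16. The sources do not state whether the 3 libraries of a group came from separate cultures, so the p-values measure only the spread between these libraries, which may be technical.

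NRF2 is the main transcription factor of the response to oxidants and electrophiles. KEAP1 binds it and hands it to a CUL3 ubiquitin ligase for degradation, and oxidants that modify cysteines of KEAP1 let NRF2 accumulate, pair with a small MAF protein and bind antioxidant response elements near its targets. This control acts on NRF2 protein, so the transcript levels of NFE2L2 and KEAP1 do not report NRF2 activity, and in kidney tubular cells the pathway is known for limiting oxidative injury.

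The libraries held between 13407074 and 28540041 counts. PRDM16, which checks the labels, had 2, 0 and 1 counts in IR+NC-LV against 14, 10 and 8 counts in IR+PR-LV. The counts differed in the direction of the labels but were too few for PRDM16 to pass the filter and be tested. At a mean of 0.54 CPM (counts scaled to library size) in IR+PR-LV, they do not show strong overexpression of the transcript. Epithelial transcripts such as KRT8 and PAX8 were abundant, with 5 of 6 such markers above a mean of 1 TPM (deposited transcript level, scaled by exon length and library). The exception was the epithelial cadherin CDH1, at or below 0.581 TPM in every library. Markers of differentiated proximal tubule were low, with 2 of 7 above a mean of 1 TPM. These were AQP1 (2.39 to 3.64 TPM) and MME (2.45 to 3.35 TPM), and the lowest was LRP2, at or below 0.0112 TPM in every library. IR+NC-LV replicate 3 and IR+PR-LV replicate 1 stood apart from their fellows. The chi-square per gene between 2 libraries, which is near 1 for sampling noise alone, was 3.40 for IR+NC-LV replicates 1 and 2 and 4.30 for IR+PR-LV replicates 2 and 3. It lay between 7.96 and 13.0 for the other pairs within a group, and no pair agreed within sampling noise.

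Antioxidant response elements share the core TGACNNNGC, and the stretches that hold it are shown because this element is what the targets of NRF2 have in common by function. Promoter windows of RefSeq on GRCh38.p14, from 250 bases before to 50 bases after each start, were found for 8 of the 9 genes (not HMOX1), in 11 windows. The core, searched on both strands, occurred in 3 of these 8 genes, GCLM, TXNRD1 and KEAP1. It occurred in 4384 of the 27305 genes with a window (16.1%), and in 19 of 40 other pathway genes with a window. Below, 1 match for each of these genes is given 5′ to 3′ on the strand of the gene, with the match in capitals.
GCLM, chr1:93909446-93909474, minus strand: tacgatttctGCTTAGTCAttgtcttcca
KEAP1, chr19:10502784-10502812, minus strand: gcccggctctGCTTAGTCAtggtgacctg
TXNRD1, chr12:104286920-104286948, plus strand: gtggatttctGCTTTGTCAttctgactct
These 3 printed matches read on the opposite strand, as TGACTAAGC in GCLM and KEAP1 and as TGACAAAGC in TXNRD1. They began 34, 31 and 102 bases before the start of their window's transcript. In the deposited annotation the GCLM stretch fell in an exon of longer transcripts, whereas those of KEAP1 and TXNRD1 lay in introns of transcripts that start further upstream. KEAP1 held 1 further match, TGACACGGC on the strand of the gene. TXNRD1 held 2, TGACTTCGC on the strand of the gene and TGACGGAGC on the opposite strand. The shared strand and likeness of the printed matches therefore depend on which were printed. The related sequence TGACTCA, bound by AP-1 and looked for after the windows had been viewed, occurred only in OSGIN1 among the 8 genes, and in 6.05% of all genes with a window. In OSGIN1 it began 97 bases before the start, outside the listed gene.
OSGIN1, chr16:83953133-83953159, plus strand: gggcccctgcTGACTCAcgcttatgaa
A match is a description of the letters and not evidence of binding. Sequence outside these windows was not searched, so a gene without a match may hold an element elsewhere.

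All 9 genes passed the filter on low counts, and none passed the test between the groups (edgeR's quasi-likelihood test, adjusted p below 0.05), a call reached by 10 of the 15340 genes tested (0.0652%). In IR+PR-LV relative to IR+NC-LV, 4 of the 9 had higher and 5 had lower levels, with a median log2 fold change of -0.06 and a range from -0.51 to 0.09, and over all genes tested 7839 were higher and 7501 lower, with a median of 0.0044. The unadjusted p from edgeR was below 0.05 for 3 of the 9, HMOX1, OSGIN1 and NFE2L2, each lower in IR+PR-LV, where 10.5% of all genes had such a p. The libraries of the groups did not overlap for 4 of the 9, these 3 and NQO1, where 17.0% of all genes did not overlap. In each of the 9 genes the 95% interval of the difference lay within a 2-fold change in either direction, as it did for 13662 of the 15340 genes. The 4 genes that did not overlap are therefore given below with intervals as differences that the 3 libraries of a group did not resolve after adjustment.

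**Figure D1:**
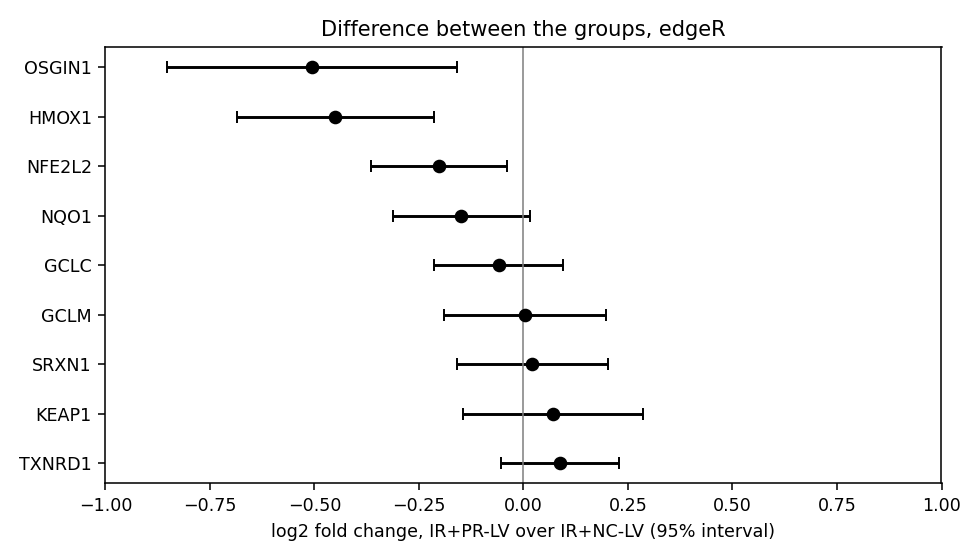
Log2 fold change of IR+PR-LV over IR+NC-LV for the 9 genes, in edgeR's fit to all genes. Points are fitted values and bars are 95% intervals, and the lowest values, -0.51 and -0.45, belong to OSGIN1 and HMOX1.

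NFE2L2 (gene-NFE2L2; GRCh38, chromosome 2, 177230303 to 177265131, minus strand, 6 exon blocks), which encodes NRF2 itself, was measured at 151, 158 and 177 CPM (counts scaled to library size) in IR+NC-LV replicates 1, 2 and 3. In IR+PR-LV it was measured at 137, 146 and 138 CPM. Every IR+PR-LV library was below every IR+NC-LV library, and the highest value belonged to IR+NC-LV replicate 3. The means were 162 ± 13.3 CPM (SD, n = 3) and 140.5 ± 5.10 CPM (SD, n = 3), a log2 fold change of -0.20 (95% interval -0.36 to -0.04, adjusted p = 0.396 in edgeR). Without IR+NC-LV replicate 3 the log2 fold change was -0.13.

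KEAP1 (gene-KEAP1; chromosome 19, 10486125 to 10503356, minus strand, 9 exon blocks) encodes the adaptor that targets NRF2 for degradation. Its levels were 58.7, 54.6 and 55.5 CPM in IR+NC-LV and 67.5, 57.5 and 52.3 CPM in IR+PR-LV. IR+PR-LV held both the highest and the lowest value, so the groups overlapped throughout. KEAP1 had a log2 fold change of 0.07 (95% interval -0.15 to 0.29, adjusted p = 0.833 in edgeR), and without IR+PR-LV replicate 1, the library with the most KEAP1, it was -0.03.

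The ratio of KEAP1 to NFE2L2 within a library does not depend on scaling between libraries. In TPM it was 0.460, 0.409 and 0.372 in IR+NC-LV and 0.583, 0.465 and 0.447 in IR+PR-LV. IR+NC-LV replicate 1 lay above IR+PR-LV replicate 3, so the groups overlapped by that pair. The log2 difference was 0.26 (2-sided exact permutation test, p = 0.2, where 3 against 3 libraries cannot go below 0.1), and it was 0.15 without IR+PR-LV replicate 1.

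Among the targets, HMOX1 and OSGIN1 had the lowest fold changes. HMOX1 (gene-HMOX1; chromosome 22, 35381096 to 35394207, plus strand, 5 exon blocks) encodes heme oxygenase 1, the inducible enzyme that breaks heme down to biliverdin, carbon monoxide and iron. It was at 23.4, 19.5 and 23.9 CPM in IR+NC-LV and at 17.4, 15.6 and 15.8 CPM in IR+PR-LV. The IR+PR-LV libraries all lay below the lowest IR+NC-LV library. These levels rest on 332 to 411 counts per IR+NC-LV library and 291 to 437 counts per IR+PR-LV library, for which counting alone gives a coefficient of variation of 5.16% and 5.52%. The means were 22.3 ± 2.41 CPM and 16.3 ± 1.0 CPM (SD, n = 3 each), and the observed coefficients of variation were 10.8% and 6.15%. The log2 fold change was -0.45 (SE 0.10, 95% interval -0.69 to -0.21), or a difference of -26.8%, with an unadjusted p of 0.00194 in edgeR. This p was the 140th smallest of the 15340, and adjusted over all of them it was 0.210. The call depended on the filter. With genes of low counts kept in the same edgeR fit, HMOX1 had a log2 fold change of -0.44 and an adjusted p of 0.0386, whereas DESeq2, like the filtered edgeR fit, did not call it (-0.44, adjusted p of 0.0728). The fit with low counts kept called 342 genes in all, against 10 in the filtered fit.

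OSGIN1 (gene-OSGIN1; chromosome 16, 83953240 to 83966332, plus strand, 6 exon blocks), oxidative stress-induced growth inhibitor 1, is the least abundant of the 9. It was measured at 13.2, 12.2 and 12.0 CPM in IR+NC-LV and at 10.96, 7.65 and 7.83 CPM in IR+PR-LV. The groups did not overlap, but IR+PR-LV replicate 1 lay closer to the IR+NC-LV libraries than to its fellows. That library sets most of the spread in IR+PR-LV, where the coefficient of variation was 21.1% against 7.54% from counting alone. With means of 12.5 ± 0.631 CPM and 8.81 ± 1.86 CPM (SD, n = 3 each), the log2 fold change was -0.51 (SE 0.15, 95% interval -0.85 to -0.16), or a difference of -29.6%. The unadjusted p in edgeR was 0.00923, the 433rd smallest, and the adjusted p was 0.327. In GENCODE release 29, 92.6% of its 100-base stretches occurred in no other gene, the rest being shared with AC009119.2.

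NQO1 (gene-NQO1; chromosome 16, 69709401 to 69726560, minus strand, 6 exon blocks), the quinone reductase that serves as a standard readout of NRF2, was at 107, 103 and 122 CPM in IR+NC-LV and at 100.3, 99.9 and 99.7 CPM in IR+PR-LV. The IR+PR-LV libraries lay within a narrow band just below the lowest IR+NC-LV library. Their coefficient of variation of 0.311% was below the 2.23% of counting alone, so it understates the error of the mean. For NQO1 the log2 fold change was -0.15 (95% interval -0.31 to 0.02, adjusted p = 0.508 in edgeR), and it was -0.07 without IR+NC-LV replicate 3. For each of the 4 genes whose groups did not overlap, the 2-sided exact permutation test gave p = 0.1, the smallest that it can give with 3 against 3 libraries.

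**Figure D2:**
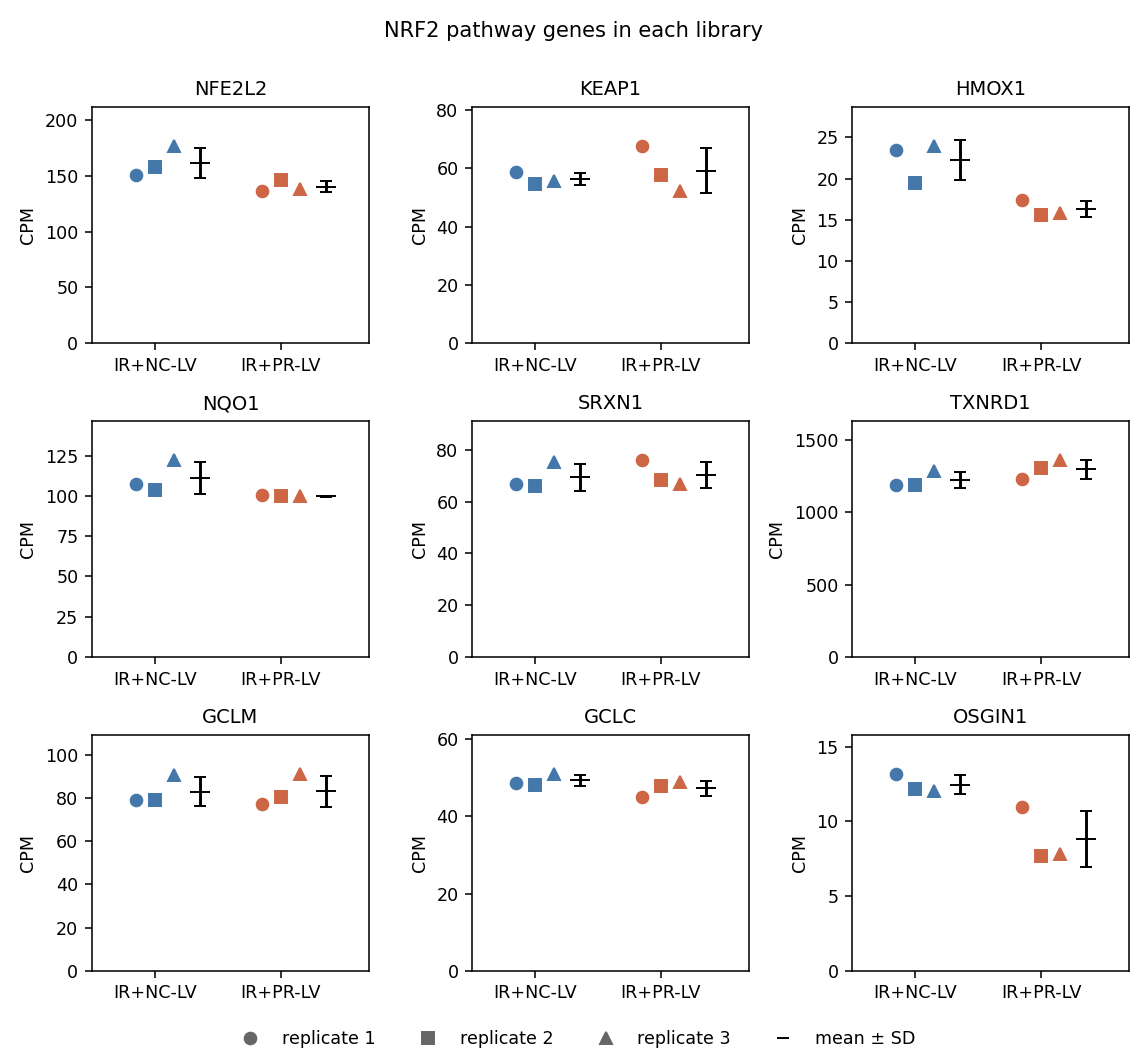
TMM-normalized CPM of the 9 genes in each of the 6 libraries, 1 panel per gene, with the group mean and SD (n = 3 each). NFE2L2, HMOX1, NQO1 and OSGIN1 are the panels in which every IR+PR-LV library lies below every IR+NC-LV library.

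TXNRD1 (gene-TXNRD1; chromosome 12, 104215779 to 104350307, plus strand, 18 exon blocks) encodes cytosolic thioredoxin reductase, which keeps thioredoxin reduced. It was measured at 1189, 1191 and 1285 CPM in IR+NC-LV and at 1229.7, 1306 and 1361 CPM in IR+PR-LV. IR+NC-LV replicate 3 lay above IR+PR-LV replicate 1, so the groups overlapped. TXNRD1 had a log2 fold change of 0.09 (95% interval -0.05 to 0.23, adjusted p = 0.670 in edgeR), ranging from 0.05 to 0.13 with 1 library left out, the highest of the 9 genes and opposite in sign to those of HMOX1, NQO1 and OSGIN1.

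SRXN1 (gene-SRXN1; chromosome 20, 646615 to 653200, minus strand, 2 exon blocks) encodes sulfiredoxin, which restores over-oxidized peroxiredoxins. It was at 66.7, 66.2 and 75.3 CPM in IR+NC-LV and at 76.0, 68.5 and 66.7 CPM in IR+PR-LV. The groups covered nearly the same range. SRXN1 had a log2 fold change of 0.02 (95% interval -0.16 to 0.20, adjusted p = 0.944 in edgeR), and it was below 0 when replicate 1 of either group or replicate 2 of IR+NC-LV was left out. In GENCODE release 29, 15.5% of its 100-base stretches occurred in no other gene, the rest being shared with AL121758.1. The deposited gene list held no other gene over the exons of SRXN1 or of OSGIN1, so no listed overlapping gene divided their reads.

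GCLM and GCLC encode the modifier and catalytic subunits of glutamate-cysteine ligase, the rate-limiting enzyme of glutathione synthesis. GCLM (gene-GCLM; chromosome 1, 93885199 to 93910370, minus strand, 9 exon blocks) was at 78.9, 79.1 and 90.7 CPM in IR+NC-LV and at 77.4, 80.6 and 91.1 CPM in IR+PR-LV. Replicate 3 was the highest in both groups, which otherwise coincided. Its log2 fold change was 0.0039 (95% interval -0.19 to 0.20, adjusted p = 0.991 in edgeR), with a sign that turned under upper-quartile scaling (-0.0076). GCLC (gene-GCLC; chromosome 6, 53497341 to 53545101, minus strand, 16 exon blocks) was at 48.8, 48.1 and 51.0 CPM in IR+NC-LV and at 45.1, 47.9 and 48.8 CPM in IR+PR-LV. The highest IR+PR-LV library matched the middle of the IR+NC-LV libraries. The log2 fold change of GCLC was -0.06 (95% interval -0.21 to 0.09, adjusted p = 0.798 in edgeR), and between -0.08 and -0.03 with 1 library left out.

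The ratio of GCLM to GCLC within a library, in TPM, was 0.968, 0.983 and 1.06 in IR+NC-LV and 1.03, 1.01 and 1.12 in IR+PR-LV. At the listed exon lengths the subunits were thus near equal in TPM in every library, and the groups overlapped. Near equality depends on these lengths. The listed exons of GCLM cover 6387 bases, against 4857 bases in its GENCODE transcript, whereas GCLC has 3820 and 3813 bases. A shorter length for GCLM would raise the ratio in every library alike, so the comparison of the groups does not depend on it. The log2 difference of the ratio was 0.06 (2-sided exact permutation test, p = 0.4). It ranged from 0.02 to 0.11 with 1 library left out.

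Per exon length, TXNRD1 was by far the most abundant of the 9 transcripts, with a mean of 966 TPM over the 6 libraries and rank 123 among all listed genes. NFE2L2 (138 TPM) and NQO1 (137 TPM) followed at nearly the same level, and TXNRD1 exceeded NFE2L2 between 6.12 and 8.28 times, depending on the library. NFE2L2 was above NQO1 in 3 of 6 libraries, so their order was not resolved at the listed exon lengths. SRXN1 (90.4 TPM) and KEAP1 (62.1 TPM) came next, each apart from its neighbours in all 6 libraries. GCLM (42.5 TPM), GCLC (41.3 TPM) and HMOX1 (40.7 TPM) formed a group without a fixed order in TPM, since each was above the next in 4 of 6 libraries. OSGIN1 was the lowest, with 18.1 TPM and rank 7312. HMOX1, whose level in unstressed cells is usually low, was below KEAP1 in all 6 libraries and above OSGIN1 in all 6.

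**Figure D3:**
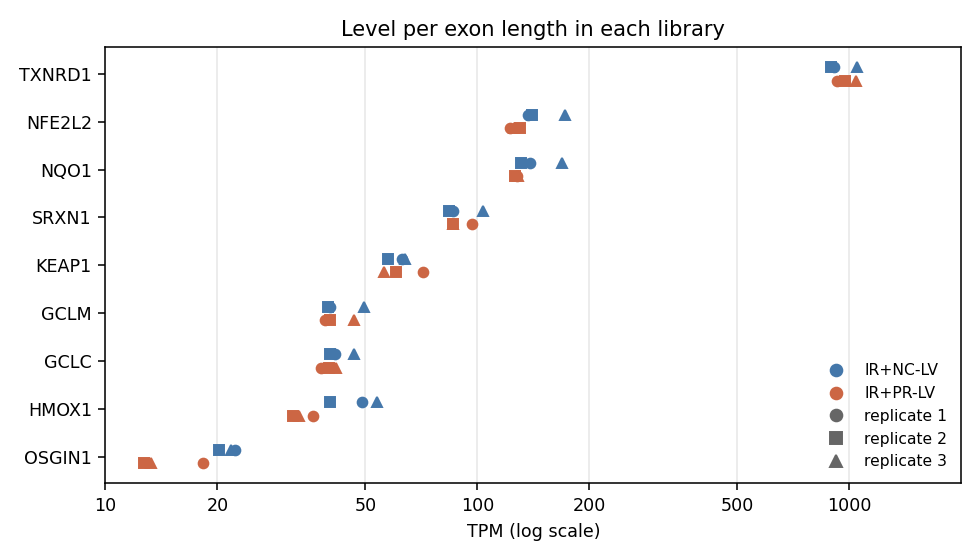
TPM of the 9 genes in each library on a log axis, ordered by mean level. Colours mark the groups and symbols the replicates. TXNRD1 stands above all others, and GCLM, GCLC and HMOX1 overlap.

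Across the 9 genes, IR+NC-LV replicate 3 was the library with the highest values, above the median of the 6 libraries in 8 of 9 genes and the highest of all in 4. IR+PR-LV replicate 1 was above that median in 2 of 9 genes. HMOX1 and OSGIN1 had log2 fold changes between -0.54 and -0.40 and between -0.69 and -0.41 over all 13 alternative settings.

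Of 54 other genes of the pathway, grouped by role, 49 could be tested and none passed (edgeR, adjusted p below 0.05, against 0.0652% of all genes). Relative to IR+NC-LV, 22 of the 49 had higher and 27 had lower levels, with a median log2 fold change of -0.02 and a range from -0.72 to 0.29. An unadjusted p below 0.05 in edgeR was found for 7 (14.3%, against 10.5% of all genes), of which 2 were higher and 5 lower, and the groups did not overlap for 8 (16.3%, against 17.0%). The list as a whole therefore lay close to the background of all genes.

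Among the 13 regulators and partners, 4 were higher and 9 lower, with a median log2 fold change of -0.04. CUL3, the scaffold of the ubiquitin ligase that degrades NRF2, was at 101, 103 and 97.5 CPM in IR+NC-LV and at 109, 117 and 119 CPM in IR+PR-LV. Its groups did not overlap, and the log2 fold change was 0.19 (adjusted p = 0.357 in edgeR). RBX1, the RING subunit of the same ligase, had a log2 fold change of -0.06. MAFF, a small MAF protein that pairs with NRF2 on DNA, was at 46.7, 45.3 and 44.5 CPM in IR+NC-LV and at 40.1, 35.9 and 35.2 CPM in IR+PR-LV, again without overlap and in the opposite direction (log2 fold change -0.30, adjusted p = 0.242). Of the relatives of NRF2, NFE2L3 was at 43.7, 41.3 and 39.7 CPM in IR+NC-LV and at 45.4, 48.2 and 50.5 CPM in IR+PR-LV. Its groups did not overlap, with a log2 fold change of 0.21 (adjusted p = 0.397 in edgeR), and NFE2L1 had -0.04 (adjusted p = 0.856 in edgeR). SQSTM1, the autophagy receptor that binds KEAP1, is listed as 2 copies. Its log2 fold change was 0.29 both for the copy with the most counts and with the copies summed. Its value rested on single libraries, at 0.44 without IR+PR-LV replicate 1 and 0.16 without IR+PR-LV replicate 2.

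Cystine uptake, the first step in glutathione supply, held the lowest values of the list. SLC3A2, the heavy chain of the cystine transporter and of other amino acid transporters, was at 159.8, 143 and 209.96 CPM in IR+NC-LV and at 129.7, 109.5 and 108 CPM in IR+PR-LV. Every IR+PR-LV library lay below every IR+NC-LV library, and IR+NC-LV replicate 3 was far above its fellows. The log2 fold change was -0.56 (95% interval -0.86 to -0.26, adjusted p = 0.216 in edgeR) and -0.39 without IR+NC-LV replicate 3. SLC7A11, the light chain that carries cystine, was at 59.6, 55.0 and 107.5 CPM in IR+NC-LV and at 42.9, 39.2 and 52.7 CPM in IR+PR-LV. IR+NC-LV replicate 3 stood out again, far above the other IR+NC-LV libraries, and the log2 fold change was -0.72 (95% interval -1.24 to -0.19, adjusted p = 0.370) and -0.35 without that library. Both calls depended on the settings. With genes of low counts kept in the edgeR fit, the adjusted p was 4.93e-05 for SLC3A2 and 0.000131 for SLC7A11, and DESeq2 called SLC3A2 (adjusted p = 0.00279). These 2 settings called more genes throughout, 342 and 166 over all genes, against 10 in the main fit. GSS, glutathione synthetase, had a log2 fold change of -0.04.

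The ferritin genes, which store iron, did not pass the test. FTL, the ferritin light chain, was at 1542, 1607 and 1468 CPM in IR+NC-LV and at 1363, 1414 and 1339 CPM in IR+PR-LV, with no overlap (log2 fold change -0.17, adjusted p = 0.389 in edgeR). FTH1, the ferritin heavy chain, was at 535, 457 and 451 CPM in IR+NC-LV and at 336, 451 and 393 CPM in IR+PR-LV. The IR+PR-LV libraries of FTH1 varied widely and reached the level of the lower IR+NC-LV libraries (log2 fold change -0.29, adjusted p = 0.407 in edgeR), and the difference was -0.19 without IR+PR-LV replicate 1. Of the 6 genes of heme and iron handling, 1 was higher and 5 were lower.

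In the thioredoxin system all 3 genes were slightly higher, like TXNRD1, with log2 fold changes of 0.12 for TXN, the substrate of thioredoxin reductase, and 0.11 for the peroxiredoxin PRDX1, and none had an unadjusted p below 0.05 in edgeR. The 6 genes of NADPH supply had a median log2 fold change of 0.01, with 0.0038 for TKT and 0.08 for TALDO1, both enzymes of the pentose phosphate pathway. The 11 detoxification enzymes tested, of 15 listed, had a median of 0.02, with -0.04 for the glutathione transferase GSTP1 and 0.02 for PTGR1. ALDH3A1 and UGT1A6 had 0 counts in all 6 libraries, and AKR1C2 had 1. The 5 efflux transporters had a median of -0.05, with -0.05 for ABCC3 and 0.12 for ABCC4.

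Markers of other cell types were read beside these values. The immune markers summed to between 182 and 201 TPM in IR+NC-LV and between 155 and 170.04 TPM in IR+PR-LV, and 1 of the 3 was above a mean of 1 TPM, the lysosomal protein CD68. The leukocyte marker PTPRC was at or below 0.0780 TPM in every library. The fibroblast markers, 2 of 5 above a mean of 1 TPM and mostly LUM, summed to between 131 and 136 TPM in IR+NC-LV and between 106 and 151 TPM in IR+PR-LV, and DCN was at or below 0.113 TPM. The endothelial markers summed to at most 0.544 TPM, and the part of any of these markers in the values above was not tested. In such bulk libraries, fewer cells with a transcript and less of it per cell cannot be told apart.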

How the data were processed

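Bulk RNA-seq libraries of irradiated HK-2 cells were analysed, 3 per group, grouped by their GEO labels. The authors deposited read counts per gene without normalization, together with TPM and FPKM, both of which could be recomputed from the counts and exon lengths. The submitters' processing notes name CASAVA, featureCounts 2.0.1, DESeq2 1.16.1 and hg38. The aligner, and whether counting used the strand, are not given in the sources used here, and reads of genes overlapping on opposite strands could then not be told apart.

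Counts were tested with edgeR 4.0.16 in R 4.3.3, with filterByExpr (minimum count 10, minimum total 15), TMM factors from 0.981 to 1.04 and the quasi-likelihood test (glmQLFit, glmQLFTest), with no covariate. The Benjamini-Hochberg adjustment ran over the 15340 genes tested, with a threshold of 0.05. CPM are TMM-normalized and TPM are as deposited. The biological coefficient of variation was 0.106. A count of 3, the limit that a count of 0 allows, corresponds to between 0.105 and 0.224 CPM. Intervals and limits from counting cover counting error only. The script was tested on simulated data in which 200 genes were changed. At a log2 change of 0.5 it called 75 of the 200 at the threshold, with 8 false calls. At a log2 change of 1 it called 147 of the 200, with 20 false calls. A true change of 0.5 would thus often be missed. In both runs the false calls made up a larger share of the calls than the 0.05 of the threshold. No simulated library was made to stand apart from its fellows.

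The genes and lists were chosen with earlier results of these data known. The text names all 9 genes, PRDM16 and, in each role of the other pathway genes, those past the threshold, those with an unadjusted p below 0.05 and the 2 with the highest mean TPM. SQSTM1, ABCC1, AKR1C2, ALDH3A1 and UGT1A6 fall outside that rule and were named for split copies or low counts after their values were seen. A gene with several listed copies entered by the copy with the most counts. Alternatives were RLE and upper-quartile scaling, DESeq2 1.42.0, no filter beyond 1 count, a block for the replicate number, each library left out, and a minimum of 10 counts in each library. Summing the copies of a gene name was added after seeing the data.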

Additional observations from a re-analysis of the deposited data

How the results depend on the processing

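No gene of the 9 passed the threshold under any of the 13 alternatives except HMOX1, which passed with no filter on low counts, so 1 of 117 values passed. HMOX1 ranged from an adjusted p of 0.0386 to 0.680, OSGIN1 from 0.112 to 0.799 and NFE2L2 from 0.284 to 0.770, and none of the 3 changed direction. The sign of genes near 0 was not stable. Leaving out 1 library gave log2 fold changes from -0.032 to 0.150 for KEAP1, from -0.035 to 0.084 for SRXN1 and from -0.067 to 0.073 for GCLM, and upper-quartile scaling gave -0.0076 for GCLM. The efflux transporter ABCC1, listed as 2 copies, went from 0.11 to -0.05 with its copies summed. Among the other pathway genes, DESeq2 called 1 and the fit with no filter called 2. Over all genes, 10 calls became 166 in DESeq2, 342 with no filter and between 1 and 28 with 1 library left out. The single call came from leaving out replicate 1 of IR+NC-LV, and again replicate 3 of IR+PR-LV, and the 28 calls from leaving out replicate 2 of IR+NC-LV. The cause was not tested. Same-numbered libraries did not deviate together (correlations -0.0088, 0.051 and 0.071), and fitted with the replicate block 3 genes were called, none of them among the 9 or the other pathway genes. OSGIN1 and HMOX1 had the fewest counts of the 9 genes, 144 to 437 per library. Depth was not their only limit. The coefficient of variation was 21.1% for OSGIN1 in IR+PR-LV, against 7.54% from counting alone. For HMOX1 in IR+NC-LV it was 10.8% against 5.16%. For OSGIN1 in IR+NC-LV it was 5.07% against 6.93%, within counting error.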
